A study of Mus musculus with 29 samples.

Results

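Type I interferon-stimulated genes are described here across cardiac fibroblasts of aged and young mice, taken fresh or after 48 h on scaffolds of heart matrix in a hydrogel. 44 genes were chosen by name, and all 44 had a row in the count table of 55357 genes. They fall into 10 subfamilies: the Ifit family, the Isg15 conjugation system, the pair of Rsad2 and Cmpk2, the Oas family, the Mx GTPases, the STAT and IRF factors, the nucleic acid sensors, the Parp family with its partner Dtx3l, a group of ubiquitin ligase, nuclear body and helicase genes, and 8 other interferon-induced genes.

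Primary mouse cardiac fibroblasts were profiled by RNA-seq in 29 libraries and 10 groups. Cells of aged mice (ACF) and of young mice (YCF) were either fresh or cultured on DECIPHER substrates, which pair the matrix of aged (A) or young (Y) heart with a stiff or a soft gel. The cultured groups were ACF+StiffA, ACF+SoftA, ACF+StiffY, ACF+SoftY, YCF+StiffA, YCF+SoftA, YCF+StiffY and YCF+SoftY. YCF+SoftY had 2 libraries and every other group had 3. Libraries within a group are biological replicates by their titles. The labels name no added agent or allele, and give neither strain, sex and exact age nor the animals behind a library, and p-values here cover only the spread among these libraries. Library names carry 1 letter per substrate, and separate numbers for ACF and YCF, so that substrate and cell age cannot be told apart from the library name. Totals ran from 1192668 to 3275089 counts per library.

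Type I interferons bind a receptor made of Ifnar1 and Ifnar2, and the kinases Jak1 and Tyk2 then activate STAT proteins, Stat2 among them. Stat2 acts with Irf9 in a complex named ISGF3, which binds the interferon-stimulated response element (ISRE) in front of its target genes. The targets hinder viruses at many steps and include the sensors and factors that start the next round of interferon, so that most cells, fibroblasts among them, hold a low tonic level of these genes even without infection.

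ISRE stretches are shown for the 8 members that met 2 conditions. They hold an ISRE core before the gene's start, and their stiffness effect differed between the cell ages (adjusted p under 0.05). The sequences are RefSeq promoter windows of GRCm38.p6, from 250 bases before to 50 bases after the gene's start, printed 5′ to 3′ on the gene's strand. Capitals mark the ISRE core (GAAA, any 2 bases, GAAA) or, on the other strand, its reverse complement.
Ifit1: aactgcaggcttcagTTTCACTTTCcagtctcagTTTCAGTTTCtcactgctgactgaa
Ifit3: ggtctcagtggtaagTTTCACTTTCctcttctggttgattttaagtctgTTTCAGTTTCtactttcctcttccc
Ifit3b: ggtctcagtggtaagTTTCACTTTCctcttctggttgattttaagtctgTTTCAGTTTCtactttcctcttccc
Isg15: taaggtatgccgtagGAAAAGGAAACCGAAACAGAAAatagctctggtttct
Oas1a: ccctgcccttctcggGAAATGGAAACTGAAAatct
Stat2: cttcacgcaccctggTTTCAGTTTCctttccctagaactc
Ddx60: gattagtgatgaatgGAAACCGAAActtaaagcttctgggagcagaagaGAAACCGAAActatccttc
Bst2: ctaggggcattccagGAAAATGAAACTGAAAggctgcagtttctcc

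In GRCm38.p6 these stretches lie at chr19:34640770-34640828 (Ifit1, plus strand), chr19:34583358-34583431 (Ifit3, plus), chr19:34607754-34607827 (Ifit3b, plus), chr4:156200860-156200911 (Isg15, minus), chr5:120907526-120907560 (Oas1a, minus), chr10:128270261-128270300 (Stat2, plus), chr8:61928019-61928086 (Ddx60, plus) and chr8:71537572-71537617 (Bst2, minus). All lie before the annotated start. The stretches of Ifit3 and Ifit3b have the same letters. Isg15 holds 3 overlapping cores, Stat2 holds 1, and the other 6 stretches hold 2 each.

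Of the 44 members, 33 had a window. The ISRE core was present before the start, on either strand, in 11 of these 33 (33.3%), against 932 of all 26994 genes with a window (3.45%). The GAS core TTCNNNGAA, an element of interferon gamma targets, was present before the start in 4 of the 33 (12.1%) and in 8.12% of all genes. In Bst2 the GAS core overlaps the first ISRE core. A match of letters is a description and not a bound site, and members without a match may hold an element outside these windows or with other letters.

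In the mm39 coordinates of the count table, Ifit3 (chr19:34560931-34566132), Ifit3b (chr19:34585370-34590802) and Ifit1 (chr19:34618271-34627410) lie in 1 cluster, and Ifit3 and Ifit3b are near-identical copies between which reads may be split. Oas1a (chr5:121034319-121045585) has several close paralogs, so that its count is uncertain in the same way. Isg15 lies at chr4:156283912-156285254, Irf7 at chr7:140842619-140846395, Stat2 at chr10:128106428-128128719 and Usp18 at chr6:121222865-121247877. The span of 19 members overlaps another gene, and for 6 of them (Irf7, Irf9, Dhx58, Parp9, Parp10 and Dtx3l) that gene had at least 10% of the member's own counts. Plec, which overlaps Parp10, had 15609 counts against 1424 for Parp10, and Phrf1 had 4890 against 8282 for Irf7. Whether counting used strand is not given in the sources used here.

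Levels are in CPM, the counts of a gene scaled to the same total in every library after TMM scaling. Changes are log2 fold changes ± SE from edgeR's quasi-likelihood test, adjusted over all genes of a fit by the Benjamini-Hochberg method, and a gene is called, and said to have risen or fallen, at an adjusted p under 0.05. Comparisons of substrates come from 1 fit of the 23 cultured libraries (12841 genes), in which 42 members passed the filter on low counts; Mx1 and Oas3 did not. The median log2 change of all genes stayed within 0.03 of 0 in each of the 15 comparisons. Fibroblast markers summed to 7099 CPM in fresh ACF and 8954 CPM in fresh YCF, and to between 25430 and 36890 CPM in the cultured groups.

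Stiffness moved the members in opposite directions in the 2 cell ages. In ACF, stiff against soft substrates gave 19 of 42 members called lower and 0 called higher, where 0.288% and 0.00779% of all genes were called in those directions. These 19 members are 45.2% of the measured members and 51.4% of the 37 genes called lower. In YCF, 17 of 42 members were called higher and 0 lower, where 1.66% and 1.9% of all genes were called. The difference between the 2 stiffness effects (ACF minus YCF) was called for 27 members, all with lower values in ACF, against 0.467% of all genes called in that direction (60 genes) and 0.319% in the other. Of the 42 members, 39 had a negative change in ACF and a positive one in YCF, and 12 were called in both. The median change was -0.62 in ACF and 0.51 in YCF, against 0.00 over all genes in both. Within single matrices, 37 of 42 members in ACF had every StiffA library below every SoftA library and 0 had the reverse, where 7.5% and 6.44% of all genes separated so. On young matrix in ACF the counts were 18 below and 0 above (4.93% and 5.04% of all genes). In YCF 28 were above and 0 below on aged matrix (5.9% and 5.45%), and 13 above and 2 below on young matrix (16.9% and 16%). Between bulk libraries, fewer cells with the programme and less RNA per cell cannot be told apart. YCF+SoftY has only 2 libraries, and without its replicate 1 the 17 calls in YCF became 10, while the 27 calls of the difference became 24.

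Ifit1 binds viral RNA that lacks the cell's own cap marks. In ACF it had 36.4, 40.0 and 52.8 CPM on StiffA, against 171, 111 and 144 CPM on SoftA, and 45, 49.7 and 45.2 CPM on StiffY, against 129, 188 and 232 CPM on SoftY. In YCF it had 106, 97.9 and 127 CPM on StiffA, against 33, 32.5 and 33 CPM on SoftA, and 199, 122 and 148 CPM on StiffY, against 87 and 80.0 CPM on SoftY. In ACF every stiff library lay below every soft one, and in YCF every stiff library lay above every soft one. Ifit1 fell in ACF (-1.84 ± 0.14, adjusted p = 2.13e-08) and rose in YCF (1.33 ± 0.16, adjusted p = 3.01e-06), a difference of -3.17 ± 0.21, adjusted p = 7.23e-10.

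**Figure D1:**
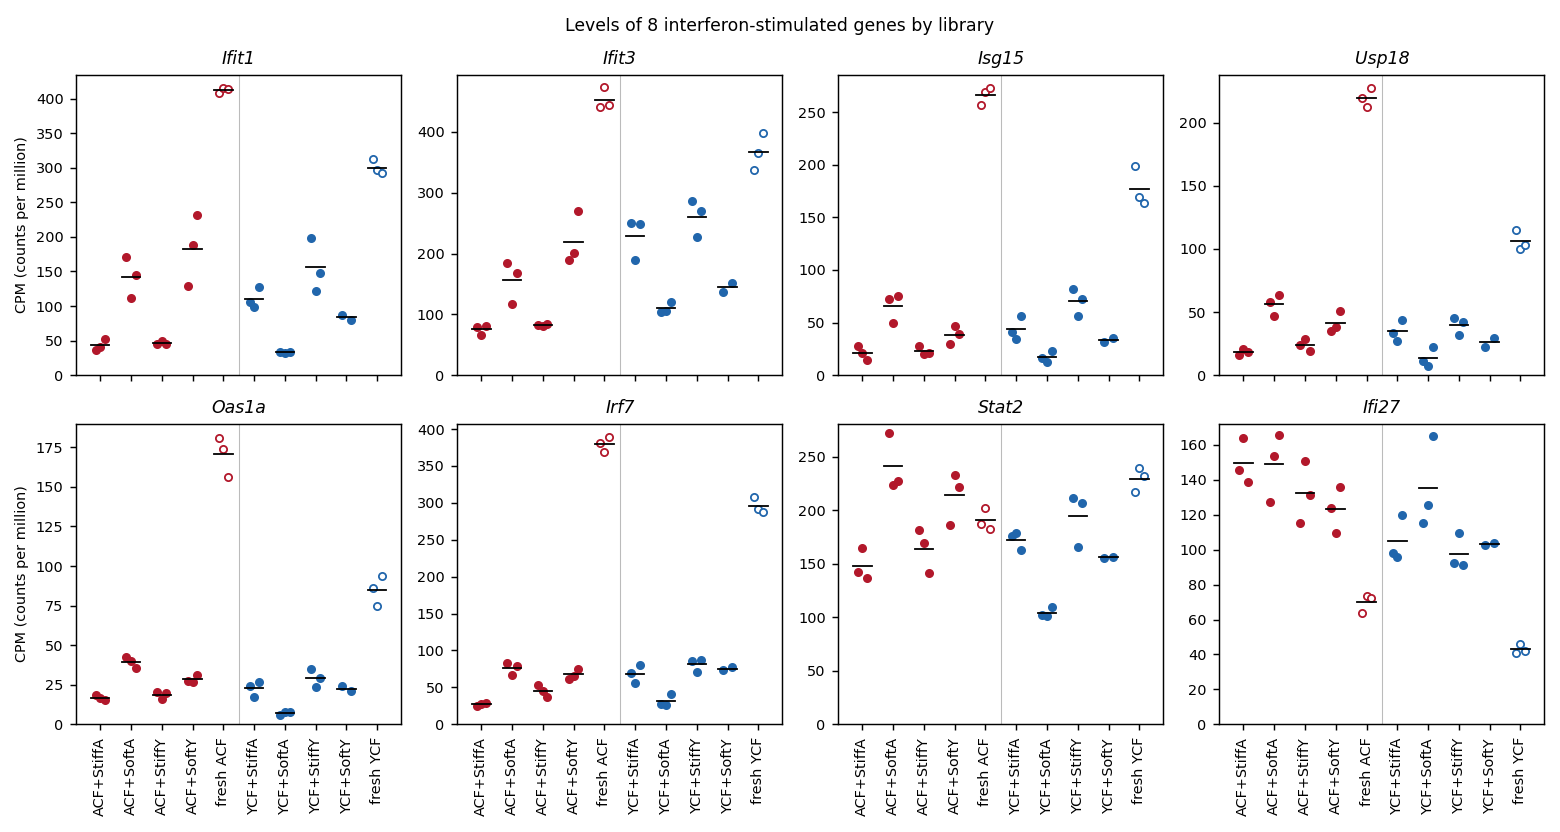
CPM of 8 members (vertical axes, linear, each panel with its own range) in every library of the 10 groups, with ACF groups in red, YCF groups in blue, fresh cells as open points and a bar at each group mean. Ifit1, Ifit3, Isg15 and Usp18 are low on both stiff substrates in ACF and high on both in YCF, and every member shown but Stat2 and Ifi27 is highest in fresh cells.

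Ifit3, which works in a complex with Ifit1 and Ifit2, was lower on stiff gels in ACF and higher in YCF. In ACF its levels were 78.8, 66.5 and 81.1 CPM on StiffA, against 184, 117 and 168 CPM on SoftA, and 83, 80.5 and 83.8 CPM on StiffY, against 189, 201 and 269 CPM on SoftY. In YCF they were 249.5, 190.1 and 248 CPM on StiffA, against 104, 106 and 120.4 CPM on SoftA, and 286, 226 and 270.0 CPM on StiffY, against 136 and 152 CPM on SoftY. Stiff and soft libraries did not overlap in either cell age. Ifit3 fell by 1.23 in ACF (SE 0.11, adjusted p = 2.43e-07) and rose by 0.96 in YCF (SE 0.11, adjusted p = 4.15e-06), with a difference of -2.18 ± 0.16, adjusted p = 2.57e-09. Its copy Ifit3b changed by -1.60 ± 0.16 in ACF and 1.08 ± 0.16 in YCF, both called. Ifit2, also an RNA-binding repressor of translation, was called in neither (ACF -0.34 ± 0.11, adjusted p = 0.489, and YCF 0.06 ± 0.12, adjusted p = 0.886).

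In the Isg15 system the modifier and its protease moved, and the conjugating enzymes were not called. Isg15, a ubiquitin-like protein attached to other proteins, had 27.4, 21.1 and 14.6 CPM on StiffA, against 72.6, 49.9 and 75.5 CPM on SoftA in ACF, and 27.8, 19.9 and 21.4 CPM on StiffY, against 29.2, 46.9 and 39.2 CPM on SoftY. YCF libraries had 41, 34.4 and 56.5 CPM on StiffA, against 16.1, 12.5 and 23 CPM on SoftA, and 82, 56.6 and 72 CPM on StiffY, against 31.5 and 35.5 CPM on SoftY. All 6 stiff ACF libraries lay below the 6 soft ones, and in YCF the 2 sides met only where libraries of different matrices are compared. The change was -1.17 ± 0.17, adjusted p = 0.000453 in ACF and 1.24 ± 0.19, adjusted p = 0.000111 in YCF. The difference was -2.41 ± 0.26, adjusted p = 1.96e-06.

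Usp18, which removes Isg15 from its targets and also restrains the interferon receptor, had 16.2, 20.1 and 28.9 CPM as lowest, median and highest stiff ACF libraries, against 35.2, 49.2 and 63.2 CPM in soft ones. In YCF it had 27.2, 37.7 and 45.0 CPM in stiff libraries, against 7.49, 22.2 and 29.8 CPM in soft ones. The 2 sides were apart in ACF and overlapped in YCF. It fell in ACF (-1.19 ± 0.17, adjusted p = 0.000453) and rose in YCF (1.01 ± 0.20, adjusted p = 0.00236). Uba7, the activating enzyme for Isg15, was at -0.44 ± 0.12 in ACF and -0.01 ± 0.13 in YCF, and Herc6, its ligase in mice, at -0.52 ± 0.18 and 0.01 ± 0.19, none of them called.

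Rsad2 and Cmpk2 are neighbours in the genome and act on the same nucleotide, since Cmpk2 phosphorylates CMP and UMP and Rsad2 (viperin) turns CTP into a chain terminator. Cmpk2 had 2.88, 3.22 and 4.72 CPM on StiffA, against 18.2, 14.2 and 6.73 CPM on SoftA in ACF, and 4.82, 2.84 and 1.43 CPM on StiffY, against 21.9, 25.6 and 43.8 CPM on SoftY. Its change in ACF was the largest of the members (-2.56 ± 0.28, adjusted p = 6.18e-06), with only 3 to 10 counts in each stiff ACF library. In YCF it was not called (0.80 ± 0.30, adjusted p = 0.159), and the difference of the 2 effects was -3.36 ± 0.41, adjusted p = 1.34e-05. Rsad2 was below 10 CPM in every cultured library, and was called in neither age (-1.22 ± 0.45 in ACF and 0.17 ± 0.62 in YCF).

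Oas enzymes sense double-stranded RNA and make the messenger that switches on RNase L. In this family 3 of 4 measured members fell in ACF and 2 of 4 rose in YCF. Oas1a had 18.4, 16.8 and 15.6 CPM on StiffA, against 42.6, 39.9 and 35.5 CPM on SoftA in ACF, and 20.3, 16.1 and 20.0 CPM on StiffY, against 27.5, 26.7 and 31 CPM on SoftY. YCF libraries had 24.4, 17.2 and 27 CPM on StiffA, against 6.15, 7.90 and 7.67 CPM on SoftA, and 35, 23.8 and 29 CPM on StiffY, against 24 and 21.2 CPM on SoftY. YCF+SoftA held the lowest 3 libraries of all. The changes were -0.90 ± 0.13, adjusted p = 0.000453 in ACF and 1.0 ± 0.16, adjusted p = 0.00018 in YCF.

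Oas2, a larger enzyme of the same kind, fell in ACF (-1.10 ± 0.19, adjusted p = 0.00324), and in YCF its change was 0.51 ± 0.23, adjusted p = 0.271. Oasl2, which carries ubiquitin-like domains, had 32.4, 47.2 and 46.7 CPM on StiffA, against 107, 72.5 and 82.2 CPM on SoftA in ACF, and 71.7, 53.5 and 74.6 CPM on StiffA, against 43.8, 30.8 and 39.1 CPM on SoftA in YCF. Over both matrices it fell in ACF (-0.84 ± 0.14, adjusted p = 0.00324) and rose in YCF (0.64 ± 0.16, adjusted p = 0.0152). Oasl1, known in mice to restrain translation of Irf7, was called in neither (-1.02 ± 0.40 and 1.30 ± 0.48). Oas3 had 0 counts in all libraries of YCF+StiffA and YCF+SoftA, where the limit that a count of 0 allows is 3 counts per group, and reached 0.828 to 2.81 CPM in YCF+StiffY and 1.58 to 2.69 CPM in ACF+SoftA.

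Mx proteins are dynamin-like GTPases that block viral capsids, and Mx1 is defective in many laboratory mouse strains. Mx1 was at 0 to 3.30 CPM in the 23 cultured libraries and Mx2 at 0 to 6.32 CPM. At that depth Mx2 changes were -0.92 ± 0.66 in ACF and 1.79 ± 0.77 in YCF, neither called.

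Among the STAT and IRF factors, 2 of 3 fell in ACF and 3 of 3 rose in YCF. Stat2, the subunit of ISGF3 that is specific to type I and type III interferon, had 142, 165 and 137 CPM on StiffA, against 272, 224 and 227 CPM on SoftA in ACF, and 182, 169 and 142 CPM on StiffY, against 187, 233 and 222 CPM on SoftY. In YCF it had 176, 179 and 163 CPM on StiffA, against 102, 102 and 109.7 CPM on SoftA, and 212, 166 and 207 CPM on StiffY, against 155 and 156 CPM on SoftY. The libraries of the 2 stiffnesses did not overlap in either age. It fell in ACF (-0.54 ± 0.08, adjusted p = 0.000716) and rose in YCF (0.52 ± 0.09, adjusted p = 0.000656), with a difference of -1.06 ± 0.12, adjusted p = 6.84e-06.

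Irf7, the factor that amplifies interferon production, had 24.8, 27.5 and 28.3 CPM on StiffA, against 82.9, 66.4 and 78.5 CPM on SoftA in ACF, and 53, 44.5 and 37.1 CPM on StiffY, against 61.8, 66 and 75.6 CPM on SoftY. YCF libraries had 69.6, 56.4 and 80.5 CPM on StiffA, against 26.9, 26.2 and 40.6 CPM on SoftA, and 86, 71.1 and 87 CPM on StiffY, against 73.6 and 77.4 CPM on SoftY. In YCF the sides separate on aged matrix and overlap on young matrix. Irf7 fell in ACF (-1.04 ± 0.12, adjusted p = 8.66e-06) and rose in YCF (0.63 ± 0.12, adjusted p = 0.00212). Irf9, the DNA-binding subunit of ISGF3, was not called in ACF (-0.44 ± 0.11, adjusted p = 0.151) and rose in YCF (0.54 ± 0.12, adjusted p = 0.00766).

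**Figure D2:**
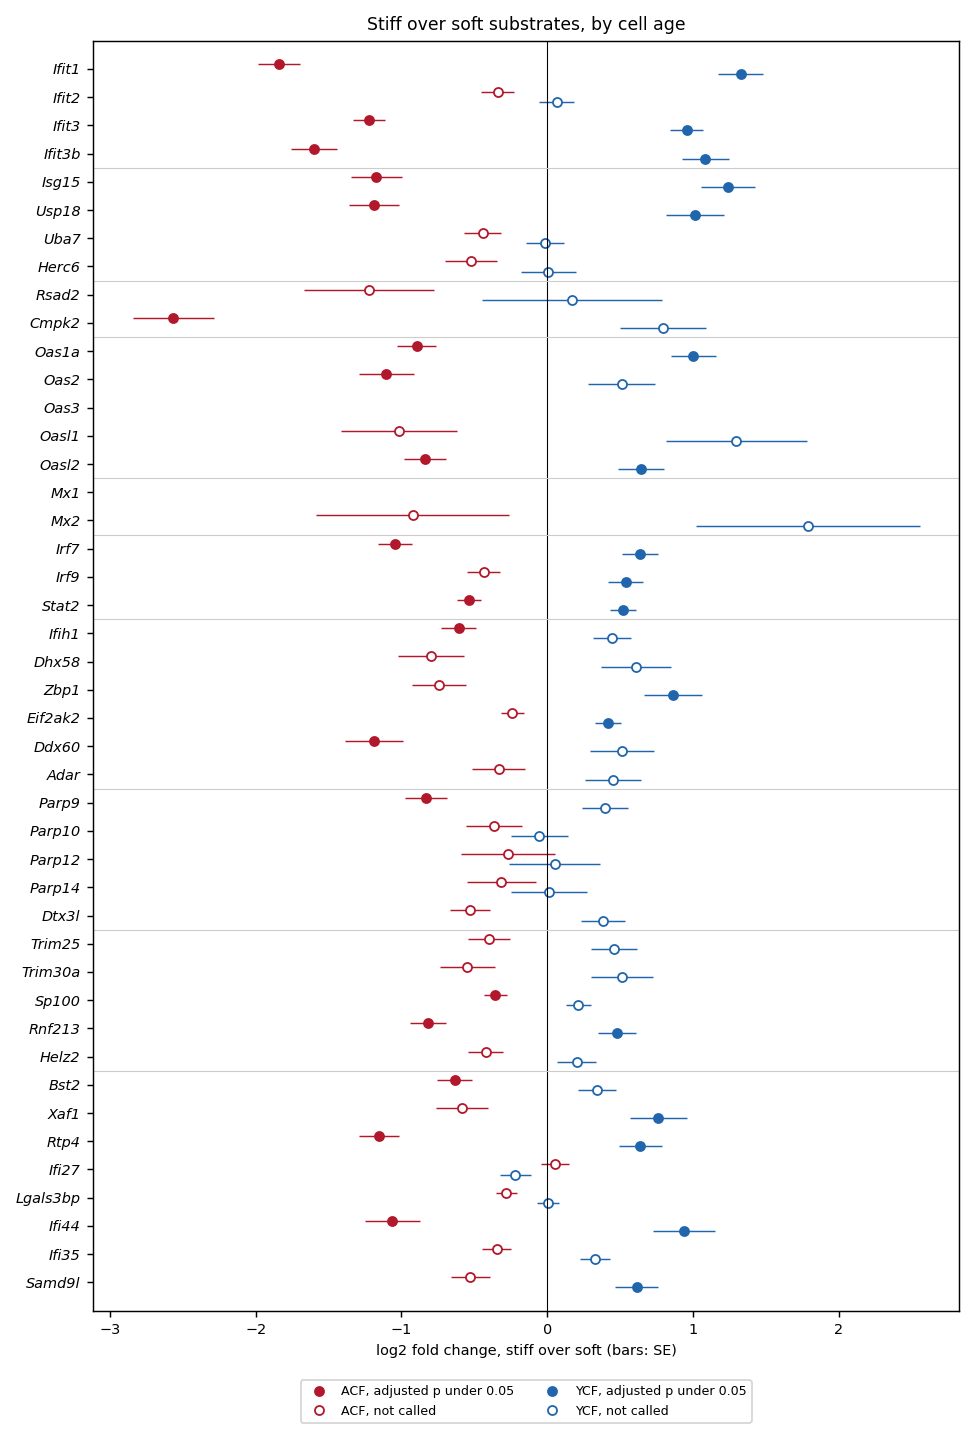
log2 fold change of stiff over soft substrates (horizontal axis, bars SE) for each measured member in ACF (red) and YCF (blue), with filled points at an adjusted p under 0.05 and grey lines between subfamilies. Most red points lie left of 0 and most blue points right of it, and Ifi27 has its red point right of 0 and its blue point left of it.

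Of the 6 sensors and RNA-binding enzymes, 2 fell in ACF, 2 rose in YCF, and the difference was called for 5. Ifih1 (MDA5), the sensor of long double-stranded RNA, had 43.9, 52.9 and 42.4 CPM on StiffA, against 83.7, 77.5 and 84.1 CPM on SoftA in ACF, and fell over the mean of both matrices (-0.61 ± 0.12, adjusted p = 0.015). In YCF its change was 0.45 ± 0.13, adjusted p = 0.0555. Ddx60, a helicase linked to RNA sensing, fell in ACF (-1.19 ± 0.20, adjusted p = 0.00232) and was not called in YCF (0.51 ± 0.22), with a difference of -1.70 ± 0.30, adjusted p = 0.00179.

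Zbp1, a sensor of left-handed nucleic acid that triggers necroptosis, rose in YCF (0.86 ± 0.20, adjusted p = 0.0113) and was at -0.74 ± 0.19, adjusted p = 0.134 in ACF. Eif2ak2 (PKR), the kinase that halts translation on double-stranded RNA, rose in YCF, with 102, 107 and 123 CPM as lowest, median and highest stiff libraries, against 69.9, 77.6 and 95.8 CPM in soft ones (0.42 ± 0.09, adjusted p = 0.00474). Dhx58 (LGP2), a partner of Ifih1, was called only for the difference (-1.41 ± 0.33, adjusted p = 0.0367). Adar, which edits double-stranded RNA, was called in none of the 3 tests (-0.33 ± 0.18 in ACF and 0.45 ± 0.19 in YCF).

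The Parp family had a median difference between the ages of -0.33, against -1.18 over all 42 members. Parp9, which acts with the ubiquitin ligase Dtx3l, had 23.4, 21.4 and 21.2 CPM on StiffA, against 49.7, 31.5 and 35.1 CPM on SoftA in ACF, and 19.8, 19.4 and 16.7 CPM on StiffY, against 33, 38.7 and 32.6 CPM on SoftY. It fell in ACF (-0.83 ± 0.14, adjusted p = 0.00336) and was not called in YCF (0.40 ± 0.16, adjusted p = 0.194). Dtx3l had 23.8, 31.1 and 31.1 CPM on StiffA, against 50.5, 45.3 and 47.1 CPM on SoftA in ACF, and 46.4, 30.6 and 31.6 CPM on StiffA, against 14.6, 25.8 and 26.1 CPM on SoftA in YCF. It was called only for the difference (-0.91 ± 0.20, adjusted p = 0.0249). The mono-ADP-ribosyl transferases Parp10, Parp12 and Parp14 were called in neither age, with changes of -0.37, -0.27 and -0.31 in ACF and -0.05, 0.05 and 0.01 in YCF.

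In the group of ubiquitin ligase, nuclear body and helicase genes, Rnf213, a giant ubiquitin ligase, fell in ACF (-0.82 ± 0.12, adjusted p = 0.000516) and rose in YCF (0.48 ± 0.13, adjusted p = 0.0349), a YCF call that was lost when any of 8 single libraries was left out. Its levels in ACF were 31, 31.4 and 34.9 CPM on StiffA, against 80.5, 51 and 49.3 CPM on SoftA, and 38, 35.5 and 35.2 CPM on StiffY, against 67.3, 63.8 and 56.6 CPM on SoftY. Sp100, a protein of nuclear bodies, had 126, 114 and 123 CPM on StiffA, against 160.3, 158 and 193 CPM on SoftA in ACF, and fell over the mean of both matrices (-0.36 ± 0.08, adjusted p = 0.0437). Trim25 and Trim30a, which modulate RNA and Toll-like receptor signalling, and the helicase Helz2 were called in neither age, at -0.40, -0.55 and -0.42 in ACF and 0.46, 0.51 and 0.20 in YCF.

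Among the 8 other genes, 3 fell in ACF and 4 rose in YCF. Rtp4, which binds viral RNA, had 28.8, 31.8 and 30.2 CPM on StiffA, against 81.3, 73.3 and 87.5 CPM on SoftA in ACF, and 46.6, 33.6 and 29.5 CPM on StiffY, against 59.2, 85.6 and 60.7 CPM on SoftY. It fell in ACF (-1.16 ± 0.14, adjusted p = 2.7e-05) and rose in YCF (0.64 ± 0.15, adjusted p = 0.011). Ifi44 had 15.8, 11.9 and 17.3 CPM on StiffA, against 3.07, 6.66 and 6.90 CPM on SoftA in YCF, and changed by -1.06 ± 0.19, adjusted p = 0.00416 in ACF and 0.94 ± 0.21, adjusted p = 0.00834 in YCF. Bst2 (tetherin), which holds budding virus at the cell surface, fell in ACF (-0.63 ± 0.12, adjusted p = 0.00985). Xaf1, a promoter of cell death, rose in YCF (0.76 ± 0.20, adjusted p = 0.0232), as did Samd9l, an antiviral brake on translation (0.61 ± 0.15, adjusted p = 0.0167).

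Ifi27, a small hydrophobic protein of mitochondria and the nuclear envelope, was the 1 member whose difference had the other sign (0.27 ± 0.14, adjusted p = 0.669). Its stiff libraries in ACF had 115, 142 and 164 CPM as lowest, median and highest, against 110, 131 and 166 CPM in soft ones. Lgals3bp, a secreted glycoprotein, was called in neither age over both matrices (-0.28 ± 0.07 in ACF and 0.01 ± 0.08 in YCF).

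**Figure D3:**
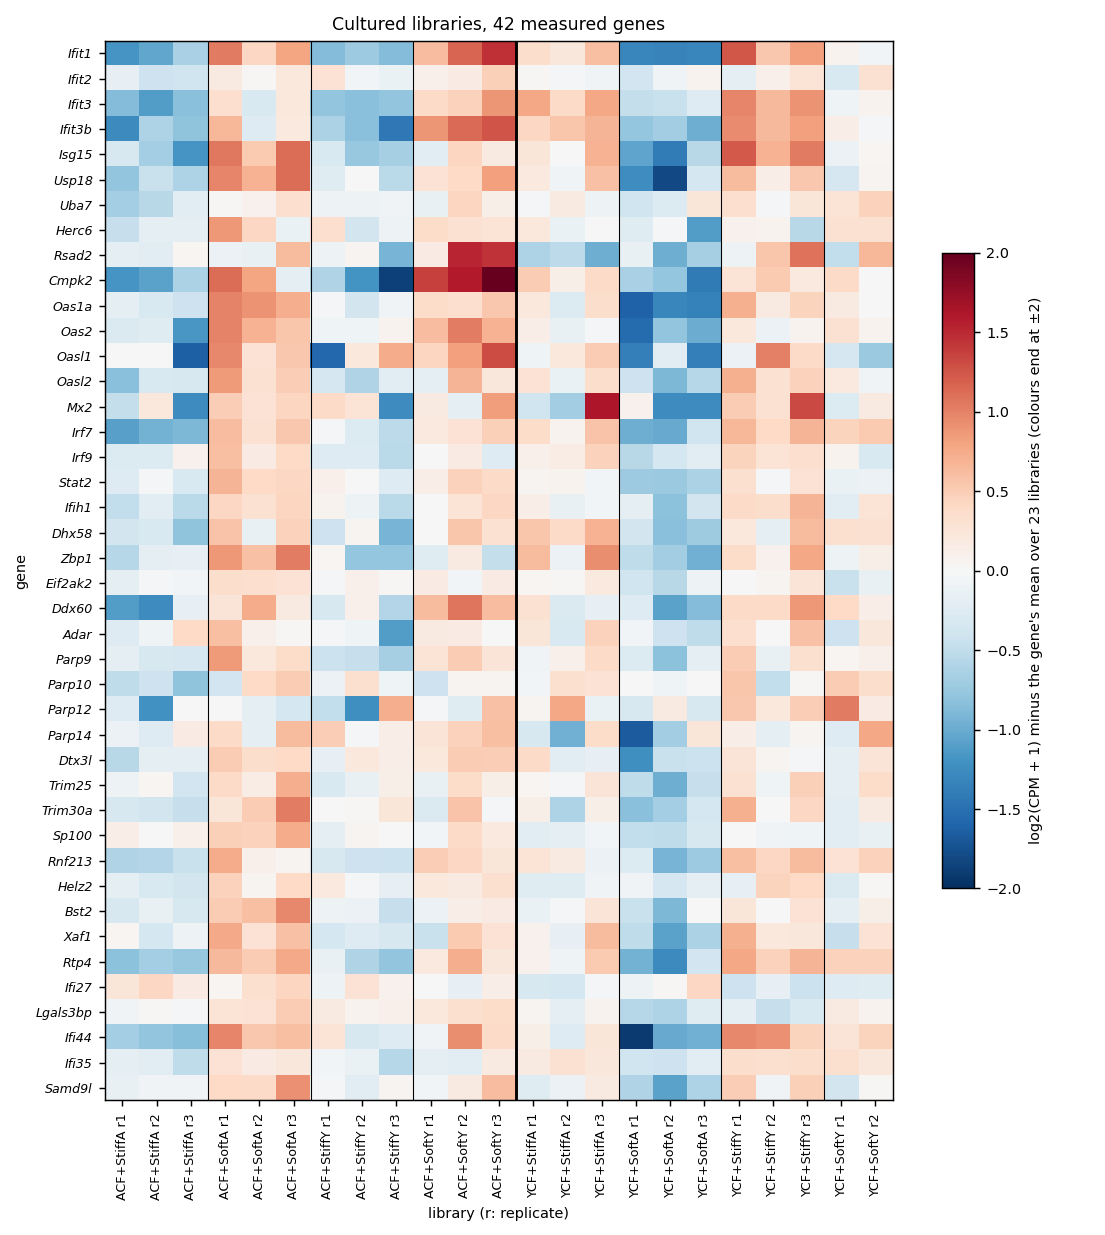
Colour shows log2(CPM + 1) of each of 42 members (rows, in subfamily order) in each of 23 cultured libraries (columns, by group), minus that gene's mean over those libraries; red is above the mean and blue below. Most rows are blue in ACF+StiffA, ACF+StiffY and YCF+SoftA and red in ACF+SoftA and YCF+StiffY.

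Set against YCF on the same substrate, ACF had higher mean levels of most members on soft gels and lower ones on stiff gels. The ACF mean was higher for 41 of 42 members on SoftA and 34 on SoftY, and for 4 on StiffA and 5 on StiffY. On SoftA, 33 of 42 members had every ACF library above every YCF library and 0 had the reverse, where 8.22% and 6.95% of all genes separated in this way. On SoftY the counts were 16 above and 2 below (14.6% and 13.9% of all genes). On StiffA they were 3 above and 24 below (9.97% and 10.5%), and on StiffY 2 above and 22 below (11.5% and 10.7%). Summed over all 44 members, ACF had 1831 ± 48.2 CPM on StiffA, against 3023 ± 256 CPM on SoftA, and 1983 ± 96.5 CPM on StiffY, against 2802 ± 297 CPM on SoftY (SD, n = 3 each). YCF had 2411 ± 225 CPM on StiffA, against 1564 ± 182 CPM on SoftA (SD, n = 3 each), and 2689 ± 252 CPM on StiffY (SD, n = 3), against 2280 ± 106 CPM on SoftY (SD, n = 2).

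Of the genes around the members in the pathway, few were called between stiffnesses. None of 19 interferon ligand genes passed the filter, and they had 18 counts in all over the 29 libraries. Of the receptor genes, Ifngr1, a receptor chain for interferon gamma, fell in YCF (-0.34 ± 0.07, adjusted p = 0.0055). Ifnar1 changed by 0.04 ± 0.07 in ACF and -0.09 ± 0.08 in YCF, not called. Of 17 measured genes for upstream sensing and induction of interferon, 0 were called in either age and 1, Ddx58 (the RNA sensor RIG-I), for the difference (-0.52 ± 0.12, adjusted p = 0.0284). Of 10 measured genes for feedback and nucleic acid clearance, 0 were called in the 3 tests.

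The ISRE cores in the promoter windows can be set beside the stiffness effect. Of the 10 measured members with the core before the start, 8 were called for the difference, with a median of -1.80. Of the 22 members with a window but no core before the start, 13 were called, with a median of -0.89. Eif2ak2 and Ifih1 are among these 22 and hold a core after the start. Of the 10 measured members with no window, 6 were called, with a median of -1.51. The split was not tested.

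Markers of cell types were also compared between stiffnesses. In YCF myeloid markers summed to 33.4 ± 3.34 CPM on StiffA, against 50.5 ± 14.8 CPM on SoftA (SD, n = 3 each). On young matrix they summed to 31.2 ± 5.62 CPM on StiffY (SD, n = 3), against 55.2 ± 2.81 CPM on SoftY (SD, n = 2). Of 4 measured myeloid markers, 1 was called lower on stiff gels in YCF and 0 were called in ACF. In ACF they summed to between 31.1 and 37.1 CPM on all 4 substrates. Endothelial markers summed to 109 ± 14.4 CPM on StiffA, against 118 ± 6.87 CPM on SoftA in ACF, and 67.3 ± 10.2 CPM on StiffY, against 47.3 ± 6.76 CPM on SoftY (SD, n = 3 each), with 0 of 6 measured called. In YCF they summed to 35.4 ± 2.20 CPM on StiffA, against 44.7 ± 9.05 CPM on SoftA (SD, n = 3 each), and to 22.2 ± 4.45 CPM on StiffY (SD, n = 3), against 42.9 ± 2.55 CPM on SoftY (SD, n = 2), with 1 of 6 called lower on stiff gels. Of 10 fibroblast markers, 6 were called lower on stiff gels in YCF and 0 were called in ACF. Their part in the result was not tested. Siglech, which marks plasmacytoid dendritic cells, had 0 counts in all 29 libraries.

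The age of the matrix had an effect in YCF. Aged against young matrix gave 10 of 42 members called lower in YCF and 0 called higher, where 0.825% and 1.67% of all genes were called. The median change of the members was -0.46. In ACF 2 members were called higher and 0 lower, where 4.14% and 3.3% of all genes were called. The difference of the 2 matrix effects was called for 1 member, Oas1a (1.15 ± 0.21, adjusted p = 0.0219), where 0.0234% of all genes were called higher and 0.0701% lower. Its sign was positive for 39 of 42 members, but beyond Oas1a the 2 ages are not shown to differ. Without YCF+SoftY replicate 2 the 10 calls in YCF became 6.

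Ifi44 led the members in YCF, with 15.8, 11.9 and 17.3 CPM on StiffA and 3.07, 6.66 and 6.90 CPM on SoftA, against 28.9, 28.1 and 19.9 CPM on StiffY and 17.4 and 19.9 CPM on SoftY. All 6 libraries on aged matrix lay below the 5 on young matrix, and Ifi44 fell by 1.25 (SE 0.21, adjusted p = 0.000767). Oas1a fell (-0.99 ± 0.16, adjusted p = 0.000438), with 6.15, 7.90 and 7.67 CPM on SoftA, against 24 and 21.2 CPM on SoftY. Ifit1 fell by 0.93 (SE 0.15, adjusted p = 0.000585), Rtp4 by 0.90 (SE 0.15, adjusted p = 0.000513), and Isg15 by 0.84 (SE 0.19, adjusted p = 0.0103). Among the factors, Irf7 (-0.77 ± 0.12, adjusted p = 0.000447) and Stat2 (-0.38 ± 0.09, adjusted p = 0.018) fell. Of the sensors, Ifih1 (-0.50 ± 0.13, adjusted p = 0.0335) and Ddx60 (-0.84 ± 0.22, adjusted p = 0.0335) fell, and of the ligases Rnf213 (-0.74 ± 0.13, adjusted p = 0.00108). The call of Ifih1 was lost in 6 and that of Ddx60 in 7 of 11 fits that left out 1 YCF library, with adjusted p of up to 0.253 and 0.169. No member of the Parp family was called.

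In ACF the 2 members higher on aged matrix were Zbp1 (0.61 ± 0.19, adjusted p = 0.0461) and Sp100 (0.26 ± 0.08, adjusted p = 0.0414), both near the threshold. They are 4.76% of the measured members, against 4.14% of all genes called in that direction. Endothelial markers were also higher there, with 4 of 6 called (median 1.02), and their part was not tested. Zbp1 had 15.5, 20.4 and 20.8 CPM on StiffA and 43.4, 35.7 and 49 CPM on SoftA, against 24.1, 13.3 and 13.3 CPM on StiffY and 19.7, 26.7 and 16.5 CPM on SoftY, so that the sides overlapped. Under other processing and with single libraries left out the count ran from 0 to 2, and it was below 2 in 11 of 12 fits that left out 1 ACF library. In those fits the adjusted p (edgeR) reached 0.147 for Zbp1 and 0.145 for Sp100.

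Whether stiffness acts differently on the 2 matrices was tested within each age. In ACF 0 members were called by edgeR, where 0% of all genes were called higher and 0.0234% lower, and 12 members had an unadjusted p under 0.05. In YCF 2 members were called, both with a larger stiffness effect on aged matrix, where 0.498% of all genes were called in that direction. They were Irf7 (1.06 ± 0.24, adjusted p = 0.0383, a call lost in 9 of 11 fits that left out 1 YCF library) and Lgals3bp (0.88 ± 0.15, adjusted p = 0.00249). Lgals3bp had 379, 319.5 and 385 CPM on StiffA, against 247, 238 and 308 CPM on SoftA in YCF, and 320.4, 266 and 295 CPM on StiffY, against 413 and 382 CPM on SoftY. Its stiff libraries were thus all higher on aged matrix and all lower on young matrix.

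StiffA against SoftY sets the substrate with both aged features against the one with neither. In ACF 18 of 42 members were called lower and 0 higher, where 1.97% and 2.24% of all genes were called. Without ACF+SoftY replicate 2 the 18 became 11. All 4 Ifit genes were among them, with Ifit2 (-0.57 ± 0.16, adjusted p = 0.0397) called here alone among the substrate comparisons. Cmpk2 (-3.08 ± 0.36, adjusted p = 3.39e-06) and Ifit1 (-2.09 ± 0.20, adjusted p = 1.52e-07) changed most, Cmpk2 on 8 to 10 counts per StiffA library. Dtx3l (-0.71 ± 0.19, adjusted p = 0.0317) was the 1 member of the Parp group that fell, a call lost in 4 of 6 fits that left out 1 library (adjusted p of 0.0623 to 0.174). In YCF 1 member was called higher and 0 lower, where 2.99% and 2.27% of all genes were called. It was Ifit3, with 249.5, 190.1 and 248 CPM on StiffA, against 136 and 152 CPM on SoftY (0.67 ± 0.17, adjusted p = 0.0145), a call lost in 4 of 5 fits that left out 1 library.

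Fresh cells were compared in a fit of their own (6 libraries, 11786 genes), in which 43 members were measured and Mx1 was not. 21 of 43 members were called higher in ACF and 3 lower, where 15% and 16.8% of all genes were called. The median change was 0.25, against -0.02 over all genes. The Oas, Ifit and other interferon-induced groups held most of the higher members, at 3 of 5, 3 of 4 and 7 of 8, and 0 of 5 in the Parp family were called either way.

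Oas3 changed most, with 25.6, 21.1 and 17.6 CPM in fresh ACF, against 4.45, 3.74 and 3.27 CPM in fresh YCF (2.42 ± 0.28, adjusted p = 1.21e-05). Its fresh YCF libraries held only 13, 13 and 7 counts. Rsad2 had 40.0, 32.3 and 40.0 CPM in fresh ACF, against 13.7, 15.8 and 14.5 CPM in fresh YCF (1.31 ± 0.18, adjusted p = 5.61e-05). Samd9l had 255, 231 and 221 CPM in fresh ACF, against 94.2, 91.7 and 104 CPM in fresh YCF (1.26 ± 0.09, adjusted p = 6.53e-08). The groups did not overlap in any of these 3 genes.

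Trim30a had 70.6, 60.1 and 64.7 CPM in fresh ACF, against 29.8, 24.7 and 29.9 CPM in fresh YCF (1.18 ± 0.14, adjusted p = 1.94e-05). Usp18 had 219, 213 and 227 CPM in fresh ACF, against 115, 100.3 and 103 CPM in fresh YCF (1.01 ± 0.08, adjusted p = 3.91e-07). Oas1a had 181, 174 and 156 CPM in fresh ACF, against 85.9, 75 and 93.5 CPM in fresh YCF (0.98 ± 0.10, adjusted p = 4.64e-06). All 3 had separate ranges, and so had Zbp1 (0.67 ± 0.08), Ifit3b (0.85 ± 0.10), Oasl1 (0.68 ± 0.14), Isg15 (0.55 ± 0.08), Bst2 (0.54 ± 0.06) and Ifit1 (0.42 ± 0.06), all called.

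The 3 members that were lower in fresh ACF were Uba7, Rnf213 and Stat2. Uba7 had 57.4, 59.7 and 66.6 CPM in fresh ACF, against 90.0, 78.7 and 83.2 CPM in fresh YCF (-0.49 ± 0.11, adjusted p = 0.00449). Rnf213 had 159.8, 166 and 159.9 CPM in fresh ACF, against 175, 208 and 213 CPM in fresh YCF (-0.33 ± 0.08, adjusted p = 0.00704). Stat2 had 187, 203 and 183 CPM in fresh ACF, against 217, 239.9 and 232 CPM in fresh YCF (-0.30 ± 0.07, adjusted p = 0.005). With all 29 libraries in 1 fit, Rnf213 and Stat2 were no longer called (adjusted p of 0.104 and 0.0657).

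The receptor genes were lower in fresh ACF. Of 9 receptor and JAK-STAT genes, 6 fell and 0 rose in fresh ACF, Ifnar1 (-0.68 ± 0.09, adjusted p = 4.48e-05) and Ifnar2 (-0.68 ± 0.12, adjusted p = 0.000417) among them. Ifnar1 averaged 144 ± 16.3 CPM in fresh ACF and 225 ± 14.9 CPM in fresh YCF (SD, n = 3 each). Irf1, an interferon-induced factor that belongs to the inducers here, fell (-1.39 ± 0.24, adjusted p = 0.000502). Of 18 inducers 2 rose and 2 fell, and of 11 feedback and clearance genes 1 rose and 4 fell.

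Myeloid markers were also higher in fresh ACF, at 396 ± 25.1 CPM summed, against 208 ± 2.86 CPM in fresh YCF (SD, n = 3 each), with 5 of 8 measured called higher. Of the defining markers, Ptprc ranged from 4.97 to 13.3 CPM in fresh ACF and from 1.15 to 2.34 CPM in fresh YCF. Cd68 ranged from 98.7 to 115 CPM in fresh ACF and from 49.3 to 50.5 CPM in fresh YCF. Adgre1 ranged from 34.1 to 47.9 CPM in fresh ACF and from 45.9 to 50.5 CPM in fresh YCF. C1qa reached 3.92 CPM in fresh ACF and 3.77 CPM in fresh YCF. Neutrophil markers summed to 11.1 CPM in fresh ACF and 2.31 CPM in fresh YCF. Of 10 fibroblast markers, 2 were called higher and 6 lower in fresh ACF (median -0.68 over the 10). Of 6 measured endothelial markers, 1 was called higher and 0 lower. The part of these markers in the change of the members was not tested.

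**Figure D4:**
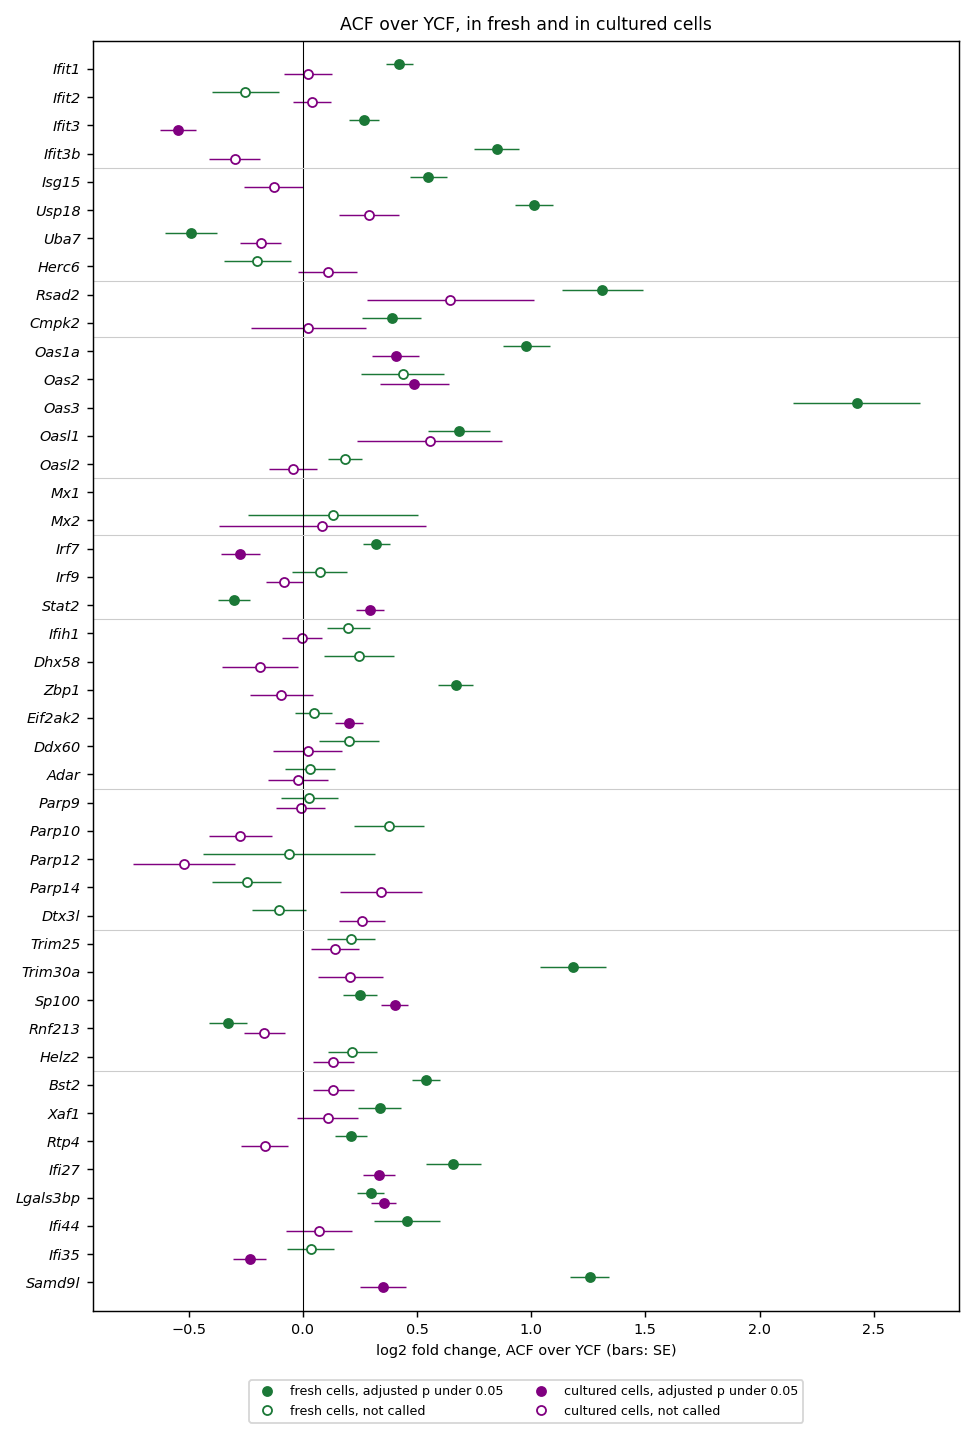
log2 fold change of ACF over YCF (horizontal axis, bars SE) for each measured member in fresh cells (green) and, averaged over 4 substrates, in cultured cells (purple), with filled points at an adjusted p under 0.05. 21 fresh points are filled right of 0, and 8 cultured ones.

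Averaged over the 4 substrates, cultured ACF against cultured YCF gave 8 of 42 members called higher and 3 lower, where 6.52% and 8.5% of all genes were called. Oas1a (0.41 ± 0.10, adjusted p = 0.00843), Samd9l (0.35 ± 0.10, adjusted p = 0.0189), Lgals3bp (0.35 ± 0.05, adjusted p = 2.79e-05), Sp100 (0.40 ± 0.06, adjusted p = 2.13e-05) and Ifi27 (0.33 ± 0.07, adjusted p = 0.00205) rose, as each also did in fresh ACF. Stat2 rose in cultured ACF (0.29 ± 0.06, adjusted p = 0.00153) and fell in fresh ACF. Ifit3 and Irf7 fell in cultured ACF (-0.55 ± 0.08, adjusted p = 1.62e-05, and -0.28 ± 0.08, adjusted p = 0.0294) and rose in fresh ACF. Oas2 (0.49 ± 0.15, adjusted p = 0.0282) and Eif2ak2 (0.20 ± 0.06, adjusted p = 0.0233) were the other 2 that rose, and Ifi35, a partner of Nmi (-0.23 ± 0.07, adjusted p = 0.0277), the third that fell. The lower calls of Irf7 and Ifi35 were lost in 13 and 9 of 23 fits that left out 1 library. These means cover opposite differences on stiff and soft gels. Ifit3 had 78.8, 66.5 and 81.1 CPM in ACF+StiffA, against 249.5, 190.1 and 248 CPM in YCF+StiffA, and 184, 117 and 168 CPM in ACF+SoftA, against 104, 106 and 120.4 CPM in YCF+SoftA. No measured member had all cultured ACF libraries on 1 side of all cultured YCF libraries. Of the cell type markers, 6 of 6 measured endothelial ones were called higher in cultured ACF (median 1.20 on the log2 scale), and 7 of 10 fibroblast ones were called lower (median -0.27 over the 10). Their part in the members' change was not tested. Outside the members, Ifnar1 (-0.19 ± 0.05, adjusted p = 0.019) and Ifnar2 (-0.27 ± 0.07, adjusted p = 0.00881) fell, and Irf1 (0.24 ± 0.13) was not called.

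After culture nearly all members were lower than in fresh cells. This was tested in a fit of all 29 libraries (13523 genes) with the 4 substrates averaged. In ACF 40 of 43 measured members fell and 2 rose, where 32.5% and 29.9% of all genes were called. In YCF 41 fell and 1 rose, where 29.9% and 27.1% of all genes were called. The median change was -1.83 in ACF and -1.37 in YCF. Fresh and cultured cells also differ in all handling after isolation, which cannot be told apart from the substrates.

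Irf7 had 24.8, 57.4 and 82.9 CPM as lowest, median and highest cultured ACF libraries, against 381, 368 and 389 CPM in fresh ACF (-2.93 ± 0.09, adjusted p = 7.43e-23). In YCF it had 26.2, 71.1 and 87 CPM as lowest, median and highest cultured libraries, against 308, 292 and 287 CPM in fresh cells (-2.30 ± 0.09, adjusted p = 1.97e-19). Isg15 had 14.6, 28.5 and 75.5 CPM in cultured ACF, against 257, 269 and 273 CPM in fresh ACF (-3.0 ± 0.13, adjusted p = 7.6e-19), the first 3 values being lowest, median and highest. Even the highest cultured library of each gene was below the lowest fresh one.

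Zbp1 had 13.3, 20.6 and 49 CPM as lowest, median and highest in cultured ACF, against 225, 258 and 257 CPM in fresh ACF (-3.42 ± 0.13, adjusted p = 3.37e-20), and fell in YCF too (-2.63 ± 0.14, adjusted p = 2.61e-16). Oasl1 (-3.88 ± 0.22 in ACF and -3.72 ± 0.26 in YCF), Cmpk2 (-3.49 ± 0.18 and -3.09 ± 0.19) and Rsad2 (-4.04 ± 0.24 and -3.36 ± 0.30) fell most among those with counts in every group. Oas3 fell by the fit (-5.67 in ACF and -4.36 in YCF), on few counts. All libraries of a group together held 1 count in ACF+StiffA, 14 in ACF+SoftA, 1 in ACF+StiffY and 2 in ACF+SoftY, and 0 in YCF+StiffA and YCF+SoftA, so that the YCF value depends on the prior count. Mx2 fell as well (-1.86 ± 0.50, adjusted p = 0.00206 in ACF, and -1.78 ± 0.54, adjusted p = 0.00559 in YCF).

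Ifi27 went against the rest in both ages. It had 109.6, 137 and 166 CPM as lowest, median and highest in cultured ACF, against 64, 73.3 and 72.1 CPM in fresh ACF (0.99 ± 0.11, adjusted p = 4.69e-09). YCF libraries had 91.1, 104 and 165 CPM in cultured cells, against 41.1, 46 and 42.1 CPM in fresh cells (1.34 ± 0.12, adjusted p = 3.46e-11). Every cultured library lay above every fresh one. Ifit2 rose in ACF (0.46 ± 0.13, adjusted p = 0.0035), with 46.5, 64.9 and 86.7 CPM in cultured cells, against 47.9, 41.9 and 48.6 CPM in fresh ones, and was not called in YCF (0.20 ± 0.13, adjusted p = 0.199). Stat2 was not called in ACF (-0.02 ± 0.08, adjusted p = 0.83) and fell in YCF (-0.59 ± 0.08, adjusted p = 4.55e-07).

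**Figure D5:**
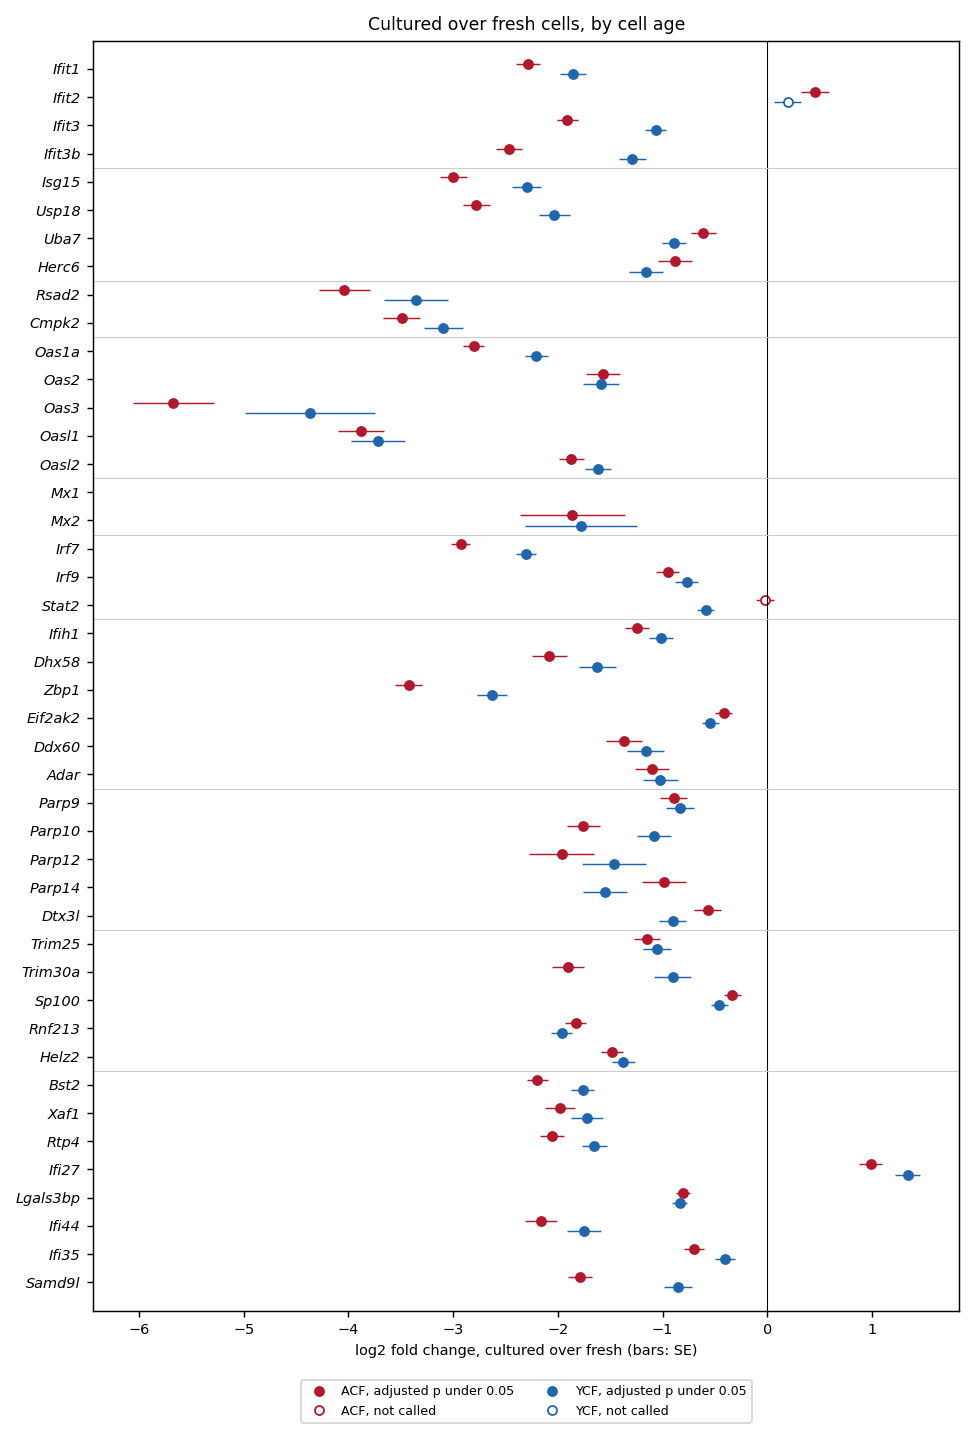
log2 fold change of cultured over fresh cells (horizontal axis, bars SE), averaged over 4 substrates, for each measured member in ACF (red) and YCF (blue), with filled points at an adjusted p under 0.05. Only Ifi27 and Ifit2 lie right of 0, and for most members the red point lies left of the blue one.

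The fall with culture was larger in ACF for 10 members and smaller for 1, where the difference was called lower for 10.1% and higher for 10.5% of all genes. The 10 include Ifit3b (-1.18 ± 0.19, adjusted p = 1.95e-05), Trim30a (-1.0 ± 0.24, adjusted p = 0.00266), Samd9l (-0.93 ± 0.18, adjusted p = 0.000311), Ifit3 (-0.84 ± 0.15, adjusted p = 9.15e-05), Zbp1 (-0.79 ± 0.21, adjusted p = 0.00628) and Usp18 (-0.75 ± 0.21, adjusted p = 0.00954). Stat2 was the member with the other sign (0.57 ± 0.12, adjusted p = 0.0008). This test uses the same fresh and cultured libraries as the age comparisons above.

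Receptor genes and factors outside the members gave other counts. Of 9 receptor and JAK-STAT genes 5 rose and 0 fell in cultured ACF, and 2 rose and 3 fell in cultured YCF. Ifnar1 changed by 0.19 ± 0.08 in ACF and -0.28 ± 0.08 in YCF, both called. Ifnar2 rose in ACF (0.25 ± 0.11, adjusted p = 0.045) and was at -0.13 ± 0.10 in YCF. Irf1 rose in ACF (0.58 ± 0.20, adjusted p = 0.0156) and fell in YCF (-1.03 ± 0.17, adjusted p = 8.19e-06). Of 18 inducers 4 rose and 11 fell in each age. Endothelial markers fell with culture, at 5 of 6 in ACF and 6 of 6 in YCF, and of 10 fibroblast markers 7 rose and 2 fell in ACF, and 8 rose and 1 fell in YCF. Myeloid markers, at 396 CPM in fresh ACF and 208 CPM in fresh YCF, summed to 31.1 to 55.2 CPM in the cultured groups, and their part was not tested.

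Replicates of a group were close for most members. Over members at 10 CPM or more, the median ratio of the highest to the lowest library ran from 1.14 to 1.43 over the 10 groups. The widest ratio was 4.32, for Parp14 in YCF+SoftA with 4.61, 9.98 and 19.9 CPM.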

How the data were processed

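RNA was counted in 29 libraries, each made from 20 ng of TRIZOL-extracted RNA with a NEBNext low input kit, per the labels' protocols. The submitters' processing notes name STAR 2.7.8a and the build mm39. The deposited values are unnormalised counts of 55357 genes in 29 columns, each tied to a sample by name. The sources used here give no version of the counting tool, annotation release or strand setting, so that reads of overlapping genes may be shared. In a library of this depth 10 CPM stands for 12 to 33 counts.

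The tests were made with edgeR 4.0.16 under R 4.3.3 (TMM, filterByExpr by group, quasi-likelihood F test, Benjamini-Hochberg adjustment over all genes of a fit, calls at an adjusted p under 0.05). Fresh cells were fitted alone (11786 genes), the 23 cultured libraries together (12841 genes), and cultured against fresh cells over all 29 libraries (13523 genes), in 15 comparisons. Means over substrates weigh groups equally. SE was taken from the fold change and its F statistic. The members, subfamilies and pathway and marker lists were chosen with earlier results of these data known, so that counts over them are descriptions.

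The text names the most abundant member of each subfamily, and per comparison up to 8 called members in each direction with the largest changes and a mean of at least 10 CPM, with at least 1 called member per subfamily. Other members are given by count, range or short values. A gene of the pathway lists is not reported here. Alternatives were RLE scaling, DESeq2 1.42.0, no filter, a filter at 10 CPM, a replicate block, other sets of libraries in the fit, and leaving out single libraries. In data simulated for the difference of the stiffness effects among 12564 genes, changes were planted only in genes with a mean of at least 10 CPM. The test recovered 26.9% of those changed by 1.5-fold, 85.1% by 2-fold and 100% by 4-fold, so that smaller differences are often missed. Recovery at lower means was not simulated.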

Additional observations from a re-analysis of the deposited data

Results flagged for a closer look

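The stiffness effect differed between the cell ages by a test of the difference itself (ACF minus YCF, log2, edgeR) for 27 of 42 measured members, all with the lower value in ACF. The values were -3.36 for Cmpk2 (on few counts), -3.17 for Ifit1, -2.68 for Ifit3b, -2.41 for Isg15, -2.20 for Usp18, -2.18 for Ifit3 and -2.0 for Ifi44. They were -1.90 for Oas1a, -1.79 for Rtp4, -1.68 for Irf7, -1.30 for Rnf213, -1.23 for Parp9 and -1.05 for Ifih1. The calls numbered 24 to 28 with any 1 library left out.

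The culture effect differed between the ages for 11 of 43 measured members, where 10.1% of all genes were called lower and 10.5% higher. In 10 the value was lower in ACF, among them Ifit3b at -1.18, Trim30a at -1.0, Samd9l at -0.93, Ifit3 at -0.84, Zbp1 at -0.79, Usp18 at -0.75, Isg15 at -0.70, Parp10 at -0.68 and Oas1a at -0.60. In 1, Stat2, it was higher in ACF at 0.57. Parp10 lost its call in 14 of 29 fits that left out 1 library. Isg15 lost it without fresh YCF replicate 2 or 3 (adjusted p of 0.0528 and 0.051), and Oas1a without fresh YCF replicate 2 (0.0559).

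The stiffness effect differed between the matrices in YCF for 2 members, Irf7 at 1.06 and Lgals3bp at 0.88. The matrix effect differed between the ages for 1 member, Oas1a at 1.15, which lost its call without YCF+SoftY replicate 1, YCF+SoftY replicate 2 or YCF+SoftA replicate 1 (adjusted p of 0.0846, 0.0575 and 0.051).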

How the results depend on the processing

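The calls of the stiffness comparisons moved little. Over RLE scaling, DESeq2, both filters, both blocks, all libraries in 1 fit and the 4 shallowest libraries left out (chosen after seeing the totals), the members called lower in ACF numbered 18 to 22, those called higher in YCF 17 to 20, and those called for the difference 23 to 30. No called value changed sign. In fresh cells the 3 lower members became 1 with all 29 libraries in 1 fit. Where calls were few they moved. Aged against young matrix in ACF gave 2 higher and 0 lower, and the higher count was 0 with RLE scaling, 1 with DESeq2 and 1 without a filter, while the lower count was 1 without a filter, 1 with each replicate block and 2 with the 4 shallowest libraries left out. StiffA over SoftY in YCF gave 2 higher with the block by library name, in place of 1. The stiffness by matrix test in YCF gave 1 with the shallow libraries left out, in place of 2. The difference of the matrix effects gave 1 higher, against 3 with DESeq2, 7 without a filter, 3 with the block by library name, 3 with all libraries in 1 fit and 2 with the shallow libraries left out. The causes were not tested.

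With single libraries left out, the lower members of cultured age numbered 1 to 4, those of stiffness in YCF 10 to 18, those of aged matrix in ACF 0 to 2 higher and 0 to 2 lower, those of aged matrix in YCF 6 to 11, those of StiffA over SoftY 11 to 18 lower in ACF and 0 to 1 higher in YCF, those of the stiffness by matrix test in YCF 1 to 3, and those of the difference of the matrix effects 0 to 3. Where YCF+SoftY is left with 1 library, that library is assumed to vary like the other groups. Over the values of named genes, 1690 of 1799 such fits kept the call, 109 lost it and 0 changed sign. Among them, Ifi44, Zbp1 and Eif2ak2 lost the stiffness call in YCF, and Samd9l and Eif2ak2 that of cultured age, without YCF+SoftY replicate 1.

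Over 126 pairs with the same replicate number in their titles, deviations from group means correlated with a median r of 0.01. These pairs pool both cell ages, as does the block by title number. Within an age, title numbers follow the order of the library name numbers, save for YCF+SoftY replicate 2. There, cultured libraries of the same library name number had a median r of 0.06 in ACF and 0.11 in YCF, against -0.06 in each for different numbers. By the number in the library name, 23 of 29 libraries had their highest mean correlation with other libraries of their own number. Only numbers of the same cell age and libraries of other groups were compared, and this is a hint from the data and not from the design. With the replicate block by title number 123 of 123 named calls were kept, and by library name 100 of 100. The block by library name left out fresh and cultured ACF over YCF, since each number belongs to a single cell age. If libraries of the same number share a source, the cultured age comparison treats related libraries as separate, and its p-values do not allow for that. At the lowest total of 1192668 counts a gene at 10 CPM has 12 counts, which limits Mx1, Mx2, Oas3 and Rsad2 in culture. It also limits Cmpk2, Oasl1 and Oas2 in groups where they are low. In YCF+SoftA a library held 3 to 10 counts of Cmpk2, 1 to 7 of Oasl1 and 3 to 11 of Oas2.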

Other observations

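Among genes that start interferon production, Tlr4, the receptor for lipopolysaccharide, rose in fresh ACF (0.95 ± 0.15, adjusted p = 0.000265), and so did Traf6, a ligase downstream of Toll-like receptors (0.92 ± 0.14, adjusted p = 0.000215). Mavs, the mitochondrial adaptor of RNA sensors, fell (-0.59 ± 0.16, adjusted p = 0.0108). Of the feedback genes Socs1, an inhibitor of Jak kinases, rose (0.56 ± 0.19, adjusted p = 0.0336), and Samhd1, which clears nucleotides, fell (-0.45 ± 0.12, adjusted p = 0.00798).

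After culture Tlr7, an endosomal sensor of single-stranded RNA, fell in both ages (edgeR, adjusted p = 1.04e-09 in ACF and 1.4e-07 in YCF), while Ifngr1 rose in both (1.63 ± 0.08, adjusted p = 8.1e-17 in ACF, and 1.09 ± 0.08, adjusted p = 6.04e-13 in YCF). Socs3, an inhibitor of cytokine receptors, fell in both (-1.12 ± 0.10, adjusted p = 1.07e-11 in ACF, and -1.30 ± 0.10, adjusted p = 6.14e-13 in YCF), and Mavs rose (1.04 ± 0.14, adjusted p = 1.36e-07 in ACF, and 0.40 ± 0.13, adjusted p = 0.00865 in YCF). The factors Irf3 and Irf2 rose in both ages, with changes of 0.55 and 0.50 in ACF and 0.67 and 0.71 in YCF (adjusted p of 0.000265 and 0.00147 in ACF, and 3.03e-05 and 3.59e-05 in YCF). On aged against young matrix in ACF, Irf5, a factor of inflammatory genes, fell (-1.06 ± 0.23, adjusted p = 0.00449).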
